A study of Mus musculus with 2 samples.

Results

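Genes for enzymes that oxidise or reduce alcohols, aldehydes and ketones were examined in mouse liver. They are the alcohol dehydrogenases (Adh), the aldehyde dehydrogenases (Aldh), the aldo-keto reductases of the Akr1 and Akr7 families, the carbonyl reductases (Cbr) and the short-chain reductases named Dhrs. Members were taken by gene symbol, leaving out the bile acid and steroid reductases Akr1d1 and Akr1c6, which gave 48 of the 15526 genes listed. Of these 48, 31 had a mean over both libraries of at least 10 CPM and 17 were lower. CPM are reads scaled to library size, with a further scaling factor per library, as deposited.

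Livers came from female NOG-TKm30 mice, 22 weeks old, given acetoaceto-o-toluidide (AAOT) at 0.3% for 4 weeks, or 0% as controls. All mice of both groups carry HSVtk, a mutant thymidine kinase gene of herpes simplex virus driven by the enhancer and promoter of mouse transthyretin, a gene of hepatocytes. NOG mice lack a working adaptive immune system, and the labels also give C57BL as strain background. For each group, liver RNA of 3 mice was mixed into 1 library, so a ratio is that of 2 pools and no spread between animals can be given. AAOT carries o-toluidine, an aromatic amine, bound as an amide.

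Alcohol dehydrogenases turn alcohols into aldehydes in a reversible, NAD-dependent step, and aldehyde dehydrogenases turn aldehydes into acids in a step that runs one way. Aldo-keto, carbonyl and short-chain reductases work mostly in the other direction, using NADPH to reduce aldehydes, ketones and quinones to alcohols. In liver these enzymes clear ethanol, the aldehydes of lipid peroxidation and many drugs, and they also act on retinoids, steroids, folate and amino acid breakdown products.

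The libraries held 18801241 reads in the pooled controls and 16528533 reads in the pooled AAOT livers. The precursor ribosomal transcript Rn45s took 3.89% and 4.70% of them. Hepatocyte markers were abundant, with 5 of 6 listed and summed levels of 77546 CPM in the pooled controls and 67558 CPM in the pooled AAOT livers, so the label of the tissue was met. Summed markers were at 202 CPM and 224 CPM for macrophages (6 of 6 listed), 352 CPM and 343 CPM for sinusoidal endothelium (6 of 6), 498 CPM and 436 CPM for stellate cells (6 of 6), 45.1 CPM and 35.7 CPM for bile duct cells (6 of 6) and 321 CPM and 352 CPM for erythroid cells (6 of 6). Markers of lymphocytes (2 of 6 listed), neutrophils (5 of 6), adipocytes (2 of 6) and kidney or adrenal gland (1 of 6) summed to at most 4.24 CPM in either pool. Single hepatocyte markers went both ways: Apoa1 was 1.63-fold, Ttr 1.28-fold, Serpina1c 1.27-fold and Alb 1.13-fold lower in the pooled AAOT livers, and Cps1 was 1.20-fold higher. Neutrophil markers summed to 47 reads in the pooled controls and 71 reads in the pooled AAOT livers. The part of these differences in the results below was not tested, and in bulk RNA fewer cells of a type and less RNA per cell cannot be told apart.

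The closest pair among the members that differed most between the pools was Aldh1a1 and Aldh1a7, and their sequences are shown because reads of such copies have to be told apart. Aldh1a1 (chromosome 19, 20492715 to 20643465, GRCm38, plus strand) and Aldh1a7 (chromosome 19, 20692953 to 20727562, minus strand) are neighbours that point toward each other across a gap of 49487 bases. Their coding sequences, of 1506 bases each, were identical at 1380 aligned bases, or 91.6%. The 60 aligned coding bases with the most differences, from coding base 317 to 376, differed at 16 positions, which stand in capitals.
Aldh1a1: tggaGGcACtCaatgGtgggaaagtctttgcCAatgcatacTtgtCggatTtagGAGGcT
Aldh1a7: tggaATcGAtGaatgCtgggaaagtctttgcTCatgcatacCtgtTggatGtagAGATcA
As a whole, 93.5% of the 50-base stretches of the longest Aldh1a1 transcript and 92.5% of those of Aldh1a7 occur in no other gene's transcripts, so most reads of the pair could be told apart.

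The bases before the start of Aldh1a7 were like those before one of the starts of Aldh1a1. RefSeq (GRCm38.p6) lists 2 start sites for Aldh1a1, and the 250 bases before the second one (chr19:20601718-20601967, plus strand) are shown with those before the start of Aldh1a7 (chr19:20727557-20727806, minus strand), each in the direction of its gene. Capitals mark the longest run that the 2 sequences share, 65 bases from position -94 to position -30, where -1 is the base just before the start site.
Aldh1a1: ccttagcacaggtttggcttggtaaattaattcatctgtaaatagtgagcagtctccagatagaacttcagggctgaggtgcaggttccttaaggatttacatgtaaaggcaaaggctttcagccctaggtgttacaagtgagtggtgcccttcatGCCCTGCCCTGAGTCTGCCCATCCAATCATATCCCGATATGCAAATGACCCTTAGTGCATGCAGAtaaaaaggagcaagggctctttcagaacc
Aldh1a7: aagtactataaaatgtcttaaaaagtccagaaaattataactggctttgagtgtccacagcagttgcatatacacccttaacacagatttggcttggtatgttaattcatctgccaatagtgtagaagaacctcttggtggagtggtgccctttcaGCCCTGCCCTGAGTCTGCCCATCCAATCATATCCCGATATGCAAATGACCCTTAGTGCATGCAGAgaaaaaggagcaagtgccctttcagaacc
The last 100 bases before both starts were identical at 94 positions. Over all 250 bases, 175 aligned and 160 of these were identical. The window of the first Aldh1a1 start was less alike, with 64.2% identity to that of Aldh1a7. Of 32851 RefSeq promoter windows of 300 bases, 2 held the 65-base run, those of Aldh1a1 and Aldh1a7.

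Across the 31 members above 10 CPM, more were higher than lower in the pooled AAOT livers. On the scale log2((AAOT + 1)/(control + 1)), which understates differences of low genes, 2 of 31 (6.45%) were at least 2-fold higher, Aldh1a7 and Akr1c19, and 0 were at least 2-fold lower. The background was 0.773% of 7761 genes at least 2-fold higher and 0.425% at least 2-fold lower, or 1.2% in either direction. At 1.5-fold, 5 members (16.1%) were higher, against 2.07% of all genes, and 0 were lower, against 1.39%, which made 5 in either direction, against 3.47%. The 3 further members at this size were Aldh1a1, the folate enzyme gene Aldh1l1 and the carbonyl reductase gene Cbr1. The median log2 ratio of the 31 was 0.17, beside -0.02 over the 7761 genes, and 22 of 31 (71.0%) were above 0, beside 46.4%, and 9 were below 0, beside 53.6%. The 95% counting interval of the ratio, explained below, lay above equality for 19 members (61.3%), beside 18.7% of all genes, below it for 4 (12.9%), beside 20.8%, and included it for 8 (25.8%), beside 60.5%. Intervals are narrower for genes with more reads, and members and all genes were not matched for abundance, so these shares also depend on read numbers. Nearest to the 2-fold limit were Akr1c19, at a log2 ratio of 1.24, and Aldh1a1, at 0.96. Nearest to the 1.5-fold limit were Cbr1, at 0.61, and Aldh1b1, at 0.55. With 1 library per group no p-value was computed.

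**Figure D1:**
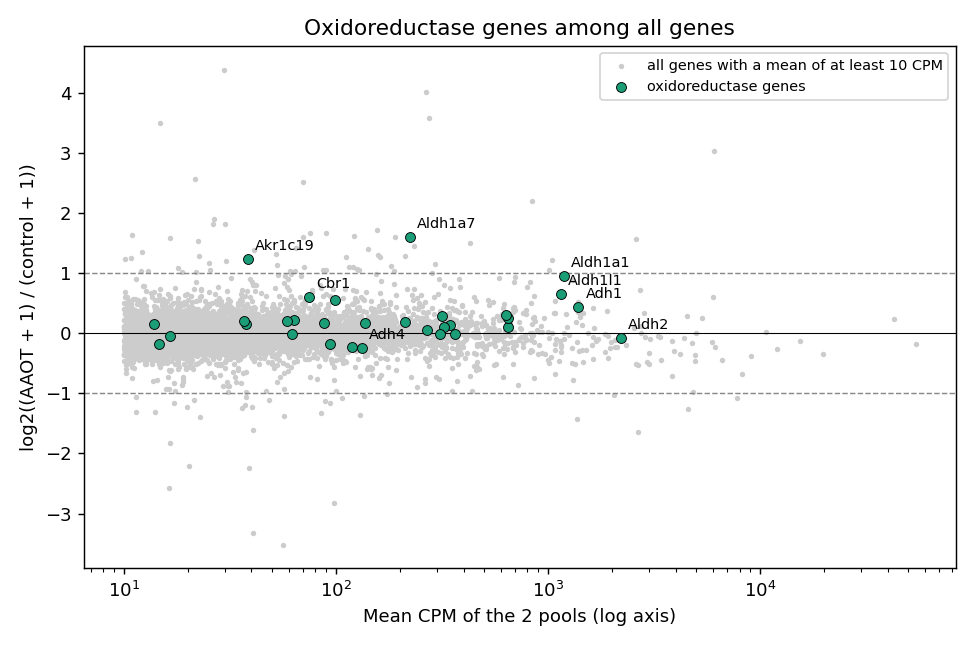
log2 ratio of the pooled AAOT livers to the pooled controls (vertical axis) against the mean CPM of both pools (log axis) for all 7761 genes of at least 10 CPM (grey) and the 31 oxidoreductase genes among them (green). Dashed lines mark 2-fold; Aldh1a7 and Akr1c19 lie above the upper line, Aldh1a1 just under it, and no oxidoreductase gene lies under the lower line.

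Summed over all 48 members, the level was 10151 CPM in the pooled controls and 12521 CPM in the pooled AAOT livers, a ratio of 1.23 (95% counting interval 1.23 to 1.24). This and the later intervals are exact intervals of the ratio of 2 read numbers and cover counting error only. Family genes took 1.003% of the summed CPM of the pooled controls and 1.27% of that of the pooled AAOT livers. Of the net difference of 2370.2 CPM, Aldh1a1 made up 760 CPM (32.1%), Aldh1l1 519 CPM (21.9%), Adh1 418 CPM (17.6%) and Aldh1a7 227 CPM (9.56%). Without these 4 genes, set apart after their values were seen, the other 44 members summed to 7166 CPM and 7613 CPM, which gives a ratio of 1.06 (1.05 to 1.07).

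**Figure D2:**
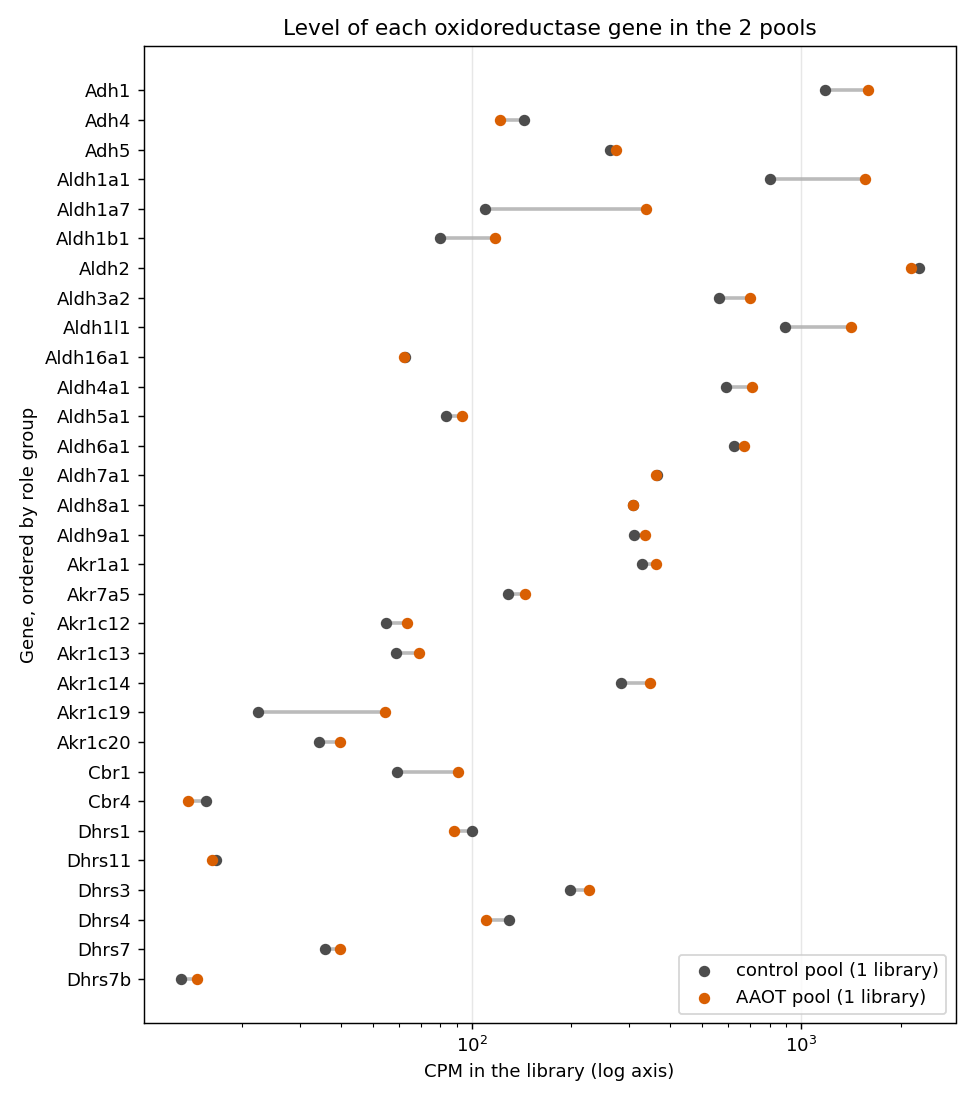
CPM of each of the 31 members above 10 CPM in the pooled controls (grey point) and the pooled AAOT livers (orange point), 1 library each, on a log axis, with genes ordered by role group. Aldh1a7, Aldh1a1, Akr1c19, Aldh1l1 and Cbr1 have the widest gaps between their points. Aldh2 has the highest CPM in both pools, without regard to transcript length.

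Alcohol dehydrogenases differed in both directions. Adh1, the main enzyme of ethanol oxidation in liver and also a retinol dehydrogenase, was at 1181 CPM in the pooled controls and 1598 CPM in the pooled AAOT livers, 1.35-fold higher (1.33 to 1.38). Adh4, a class II enzyme, was at 144 CPM and 122 CPM, 1.19-fold lower (1.12 to 1.26). Adh5, which clears formaldehyde bound to glutathione, was at 263 CPM and 273 CPM, which gives a ratio of 1.04 whose interval, 0.998 to 1.08, includes equality. Adh7, the class IV enzyme of the stomach, had 80 reads and 79 reads. The group of 4 summed to 1592 CPM and 1998 CPM, which gives a ratio of 1.25 (1.24 to 1.27). Among the 3 above 10 CPM, Adh1 alone was more than 1.1-fold higher in the pooled AAOT livers. All 4 lie on the plus strand within 238 kb of chromosome 3 (138217760 to 138455499, GRCm38), in the order Adh7, Adh1, Adh4 and Adh5, so the gene that was higher and the gene that was lower are neighbours in this list. No other symbol made of Adh followed by a digit was among the genes listed.

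The largest ratio of the abundant members belonged to the cytosolic ALDH1A enzymes. Aldh1a7, the rodent relative of Aldh1a1 shown above, was at 109.7 CPM (2037 reads) in the pooled controls and 336 CPM (5627 reads) in the pooled AAOT livers. That was 3.07-fold higher (2.91 to 3.23), rank 18 of 7761 genes by log2 ratio. Aldh1a1, which oxidises retinal to retinoic acid and many other aldehydes, was at 803 CPM (14920 reads) and 1563 CPM (26160 reads), 1.95-fold higher (1.91 to 1.99), at rank 65. Both genes were higher in the pooled AAOT livers, and the ratio of the smaller one was the larger, so that Aldh1a7 had 13.7 reads per 100 reads of Aldh1a1 in the pooled controls and 21.5 in the pooled AAOT livers. Added together, which does not depend on how reads were split between the copies, they were at 913 CPM and 1899 CPM, which gives a ratio of 2.08 (2.04 to 2.12).

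Mitochondrial members of the same class did not share this size. Aldh2, the main acetaldehyde dehydrogenase, was at 2269 CPM and 2151 CPM, 1.05-fold lower (1.04 to 1.07). Its relative Aldh1b1 was at 80.02 CPM and 118 CPM, 1.47-fold higher (1.38 to 1.58). The other retinal dehydrogenases, Aldh1a2 and Aldh1a3, were close to absent: Aldh1a2 had 5 reads and 3 reads, and Aldh1a3 had 7 reads and 3 reads. In the group of 6, 4 were above 10 CPM, 1 was at least 2-fold higher, and the median log2 ratio was 0.76.

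**Figure D3:**
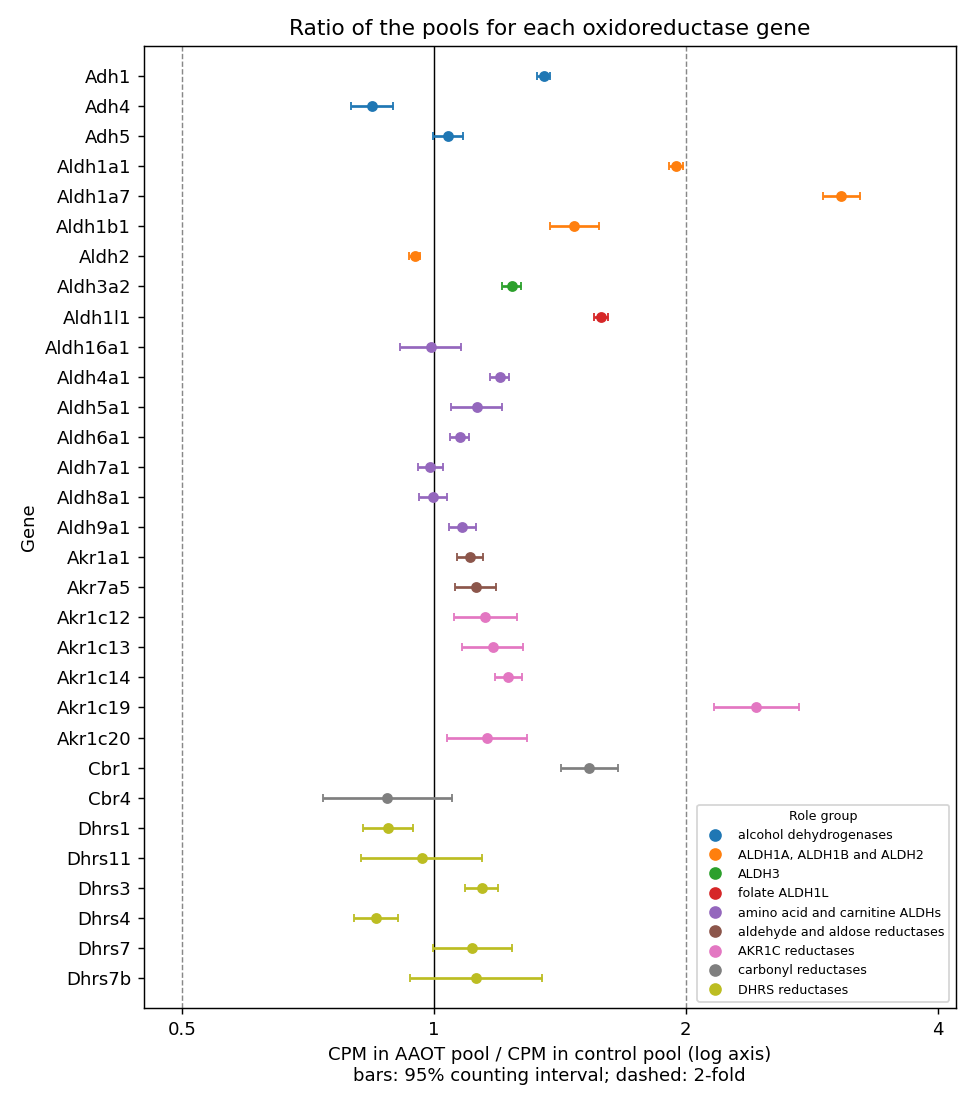
Ratio of CPM in the pooled AAOT livers to CPM in the pooled controls (log axis) for each of the 31 members above 10 CPM, coloured by role group, with 95% counting intervals as bars. Dashed lines mark 2-fold; the intervals of Aldh1a7 and Akr1c19 lie wholly above the upper line and that of Aldh1a1 just below it.

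Aldh1l1 (chromosome 6, 90486427 to 90600203, plus strand), the cytosolic 10-formyltetrahydrofolate dehydrogenase, was among the most abundant members. It was at 892 CPM (16556 reads) in the pooled controls and 1411 CPM (23613 reads) in the pooled AAOT livers, 1.58-fold higher (1.55 to 1.61). Its mitochondrial counterpart Aldh1l2 had 1 read and 2 reads. Aldh3a2, the fatty aldehyde dehydrogenase of the endoplasmic reticulum, was at 563 CPM and 698 CPM, 1.24-fold higher (1.21 to 1.27). Its relatives of the ALDH3B class were low. Aldh3b1 had 34 reads and 61 reads, 1.99-fold higher (1.29 to 3.12), while the intervals of Aldh3b2 and Aldh3b3 included equality. Aldh3a1 was not among the genes listed, under this symbol.

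Aldehyde dehydrogenases of amino acid and carnitine metabolism, grouped here with Aldh16a1, for which no such pathway is given, were close to even between the pools. The group of 8 summed to 2346 CPM and 2540.0 CPM, which gives a ratio of 1.08 (1.07 to 1.10), and the 7 members above 10 CPM had log2 ratios from -0.01 to 0.26, with a median of 0.10. The proline breakdown enzyme Aldh4a1 had the highest ratio, at 589 CPM and 706 CPM, 1.20-fold (1.17 to 1.23), but only 64.5% of the stretches of its longest transcript are its own. Aldh5a1 of GABA breakdown was at 83.1 CPM and 93.5 CPM, 1.12-fold higher (1.05 to 1.21). Aldh6a1 of valine and pyrimidine breakdown was at 626 CPM and 672 CPM, 1.07-fold higher (1.05 to 1.10), and Aldh9a1 of carnitine synthesis was at 310.1 CPM and 335 CPM, 1.08-fold higher (1.04 to 1.12). For 3 members the interval included equality. These were the lysine breakdown enzyme Aldh7a1, at 365 CPM and 362 CPM, Aldh8a1 of the kynurenine pathway, at 309 CPM and 308 CPM, and Aldh16a1, at 62.6 CPM and 62.03 CPM. Aldh18a1, which works in the opposite direction as an enzyme of proline synthesis, had 17 reads and 29 reads, 1.89-fold higher (1.01 to 3.67).

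**Figure D4:**
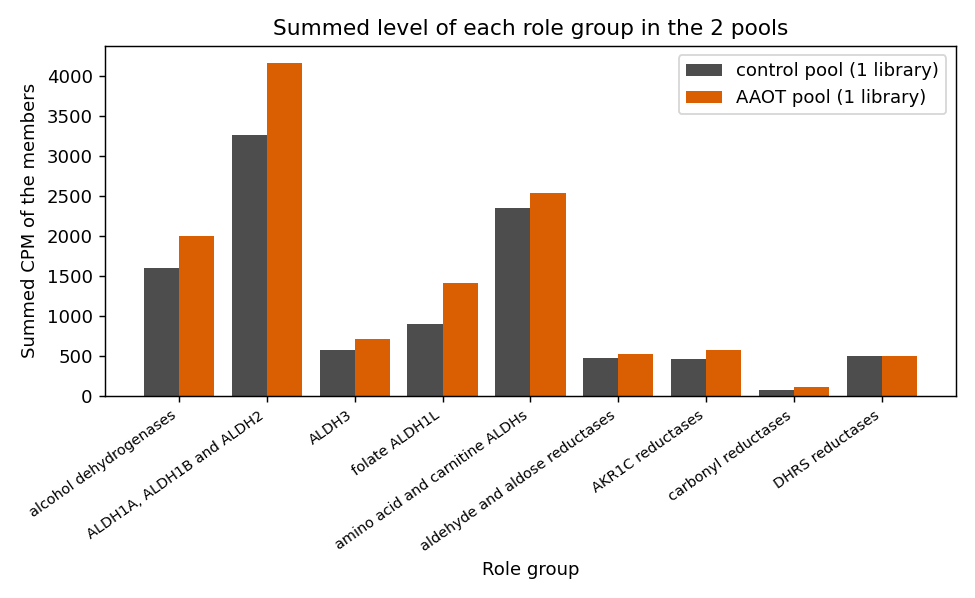
Summed CPM of all members of each role group (bars from 0) in the pooled controls (grey) and the pooled AAOT livers (orange), 1 library each. The group of ALDH1A, ALDH1B and ALDH2 is the largest in both pools, at 3263 CPM and 4169 CPM, and the DHRS reductases are level, at 497 CPM and 501 CPM.

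In the AKR1C group, reductases of steroids and other ketones, 5 of 5 members were higher in the pooled AAOT livers with intervals that left out equality, and 1 stood apart. The interval of 18.7% of all genes above 10 CPM lay above equality, a share not matched to this group for abundance. Akr1c19 (chromosome 13, 4228700 to 4252843, plus strand) was at 22.5 CPM (417 reads) and 54.5 CPM (912 reads), 2.43-fold higher (2.16 to 2.73), at rank 36. Akr1c14, a steroid dehydrogenase and the most abundant of the group, was at 283 CPM and 348 CPM, 1.23-fold higher (1.18 to 1.27). Akr1c20 was at 34.2 CPM and 39.6 CPM, 1.16-fold higher (1.04 to 1.29). Akr1c13, at 58.6 CPM and 69.0 CPM, and Akr1c12, at 54.9 CPM and 63.3 CPM, were 1.18-fold (1.08 to 1.28) and 1.15-fold (1.06 to 1.26) higher.

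Akr1c12 and Akr1c13 are near copies, with 96.2% identical coding bases, and about 71.4% of the stretches of each longest transcript are its own. Even the 60 coding bases in which they differ most, coding bases 343 to 402, hold 9 differences, shown in capitals, so their separate values are uncertain. Summed, they were at 114 CPM and 132 CPM, which gives a ratio of 1.16 (1.10 to 1.24).
Akr1c12: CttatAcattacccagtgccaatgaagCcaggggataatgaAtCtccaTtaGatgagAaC
Akr1c13: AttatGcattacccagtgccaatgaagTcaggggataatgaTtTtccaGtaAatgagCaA
Akr1c19 is far enough from them to be counted on its own, with 77.8% identity to Akr1c13 and 95.8% of its stretches unique. Its most different 60 coding bases, from coding base 901 to 960, differ from Akr1c13 at 26 positions, in capitals.
Akr1c13: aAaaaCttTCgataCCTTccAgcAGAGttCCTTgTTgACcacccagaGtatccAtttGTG
Akr1c19: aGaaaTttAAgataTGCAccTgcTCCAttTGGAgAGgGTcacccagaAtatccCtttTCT

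These genes lie together in 560 kb of chromosome 13 (4049011 to 4609174, GRCm38), and Akr1c19 stands between Akr1c13 and Akr1c12 in the order of listed genes. The high ratio did not extend along the cluster. Akr1c6, which the choice of members left out and which lies between Akr1c12 and Akr1c20, was at 1040.3 CPM and 826 CPM, 1.26-fold lower (1.23 to 1.29). Akr1d1, the other gene left out, lies on chromosome 6 and went the other way. It was at 179 CPM and 279 CPM, 1.56-fold higher (1.49 to 1.63). With both genes included, the ratio of summed CPM was 1.20 (1.19 to 1.21). Akr1e1 at the end of the cluster had 103 reads and 91 reads, with an interval that includes equality. Akr1c18 and Akr1c21 were not among the genes listed, under these symbols.

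**Figure D5:**
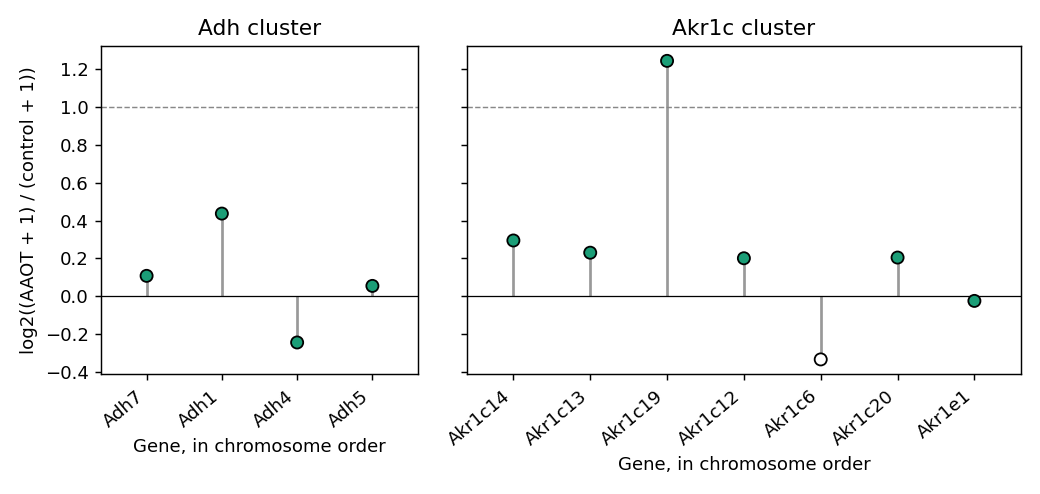
log2 ratio of the pooled AAOT livers to the pooled controls for listed genes of the Adh cluster (left) and the Akr1c cluster (right) in chromosome order; the dashed line marks 2-fold and the open circle is Akr1c6, which is not among the 48 members. Akr1c19, at 1.24, is the single gene above the dashed line, between Akr1c13 and Akr1c12, and Akr1c6 is at -0.33.

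Promoter windows of RefSeq (300 bases, 250 before and 50 after each start) were found for 41 of 48 members, in 46 windows. The core letters of the antioxidant response element bound by NRF2, TGACNNNGC on either strand, were in 3 of 46 windows (6.52%) and in 12.4% of all 32851 windows. Among the 5 members at least 1.5-fold higher, the window of Akr1c19 held it, on the minus strand from base 8 after the RefSeq start, shown in capitals within 30 bases (chr13:4233736-4233765, plus strand).
Akr1c19: cagcagaacttGCTTAGTCAgaagagtgat
The core of the dioxin response element, GCGTG, was in 17 of 46 windows (37.0%) and in 32.4% of all windows, and Cbr1 alone of those 5 genes had it, at 2 places. Simple forms of nuclear receptor sites were searched as well, namely AGGTCA followed by AGGTCA after 4 bases, AGTTCA followed by AGTTCA after 4 bases, and AGGTCA followed by AGGTCA after 1 base. They were in 0 of 46 windows and in 0.0152%, 0.0122% and 0.0396% of all windows. All were searched on both strands, and since the reverse complement of AGGTCA starts with TGAC, motifs with it can overlap TGACNNNGC. A match describes these letters only, and the lack of one says nothing about sites outside the window.

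Cbr1 (chromosome 16, 93605853 to 93610505, plus strand), which reduces quinones, prostaglandins and other carbonyls, was at 59.1 CPM (1098 reads) and 90.7 CPM (1518 reads), 1.53-fold higher (1.42 to 1.66). Its close relative Cbr3 had 2 reads and 3 reads, and Cbr2 had 2 reads and 5 reads. Cbr4, part of a reductase of mitochondrial fatty acid synthesis, was at 15.6 CPM and 13.7 CPM, with an interval of the ratio, 0.737 to 1.05, that includes equality. Of the 2 members of this group above 10 CPM, Cbr1 alone differed by as much as 1.5-fold between the pools. The intervals of the rare Cbr2 and Cbr3 included equality and were too wide to place them.

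Of the 7 aldehyde and aldose reductases, the abundant Akr1a1 and Akr7a5 were slightly higher, and the other 5 were low and mixed. Akr1a1, the aldehyde reductase that also serves vitamin C synthesis in mice, was at 328 CPM and 362 CPM, 1.10-fold higher (1.07 to 1.14). Akr7a5, related to the aflatoxin aldehyde reductases, was at 129 CPM and 145 CPM, 1.12-fold higher (1.06 to 1.19). The aldose reductase relatives on chromosome 6 were all under 10 CPM. Akr1b7 had 5 reads in the pooled controls and 47 reads in the pooled AAOT livers, or 0.269 CPM and 2.81 CPM, 10.4-fold higher (4.17 to 33.6), and 84.2% of its stretches are unique. Aldose reductase itself, Akr1b3, was listed at 0 in the pooled controls and had 24 reads, 1.43 CPM, in the pooled AAOT livers. Counting error alone allows up to 3 reads, or 0.162 CPM, behind a 0, but whether this 0 came from how reads were assigned to genes was not tested, so no fold is given. It is 1 of 2 genes listed at 0 in the controls with at least 24 reads in the other library, and the other, the haemoglobin gene Hbb-bs, had 102 reads there while its copy Hbb-bt had 218 reads and 225 reads. The reverse, 0 in the AAOT library, held for 4 genes. Akr1b8, at 63 reads and 42 reads, Akr1b10, at 15 reads and 20 reads, and Akr1e1, whose values are given above, had intervals that included equality.

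The DHRS reductases showed no common direction. Dhrs3, which reduces retinal back to retinol, was at 198 CPM and 226 CPM, 1.14-fold higher (1.09 to 1.19). Dhrs4, a peroxisomal carbonyl reductase, was at 129 CPM and 110.1 CPM, 1.17-fold lower (1.10 to 1.25), and Dhrs1 was at 100.1 CPM and 88.3 CPM, 1.13-fold lower (1.06 to 1.22). Intervals included equality for Dhrs7, at 35.6 CPM and 39.6 CPM, for Dhrs7b, at 13.03 CPM and 14.6 CPM, and for Dhrs11, at 16.7 CPM and 16.2 CPM. The retinol dehydrogenase Dhrs9 was rare, with 6 reads and 25 reads, 4.62-fold higher (1.85 to 13.8). Dhrs13 had 72 reads and 68 reads. The group of 8 summed to 497 CPM and 501 CPM, which gives a ratio of 1.01 (0.978 to 1.04).

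Taking the low members together, 17 had a mean under 10 CPM, from 0.0867 to 5.49 CPM, with 0 to 103 reads per library. The interval lay above equality for 5 of them, beside 6.62% of the 7765 genes under 10 CPM, below it for 0, beside 5.31%, and included it for 12, beside 88.1%. The 5 were Akr1b7, Dhrs9, Aldh3b1, Aldh18a1 and, by way of its 0, Akr1b3. A floor of 10 CPM therefore leaves Akr1b7 and Akr1b3, both past 2-fold on the log2 scale used here, out of the count of 2.

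Levels of different genes were compared per kilobase of the longest transcript. In the pooled controls Adh1 (791 CPM per kb), Aldh2 (587) and Aldh1a1 (341) came first, and in the pooled AAOT livers the order was Adh1 (1071), Aldh1a1 (663) and Aldh2 (556). Aldh1a7 moved from rank 18 to rank 8 of the 31 members, at 53.1 and 163 CPM per kb. Per kilobase of coding sequence, a measure added after the data were seen, Aldh2 came before Adh1 in the pooled controls. In the pooled AAOT livers this measure gave Adh1 (1417 CPM per kb), Aldh2 (1379) and Aldh1a1 (1038), so Aldh1a1 did not pass Aldh2. By the same measure Aldh1a7 moved from rank 19 to rank 13.

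Other genes of the same chemistry are given for context, from lists chosen with earlier results of these data known. Of all genes above 10 CPM, 0.773% were at least 2-fold higher and 0.425% at least 2-fold lower. Among 19 retinoid and steroid dehydrogenases above 10 CPM, the count past 2-fold was 1 higher and 0 lower. Their median log2 ratio was -0.09, and 13 lay below 0. The higher one was Rdh11, a retinal reductase, at 32.4 CPM and 72.8 CPM, 2.25-fold higher (2.03 to 2.48), while Retsat, which saturates retinol, was 1.30-fold lower (1.26 to 1.34). Among 26 genes of other routes for alcohols, aldehydes and carbonyls, the count past 2-fold was again 1 higher and 0 lower. Their median was 0.23, and 19 lay above 0. That gene was Acss2, which turns acetate into acetyl-CoA, at 77.0 CPM and 207 CPM, 2.68-fold higher (2.52 to 2.86). The aldehyde oxidases went apart, with Aox1 1.64-fold higher (1.55 to 1.75) and Aox3 1.27-fold lower (1.24 to 1.32). Cyp2e1, the ethanol-oxidising cytochrome, was 1.36-fold lower (1.35 to 1.37).

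Targets of xenobiotic and retinoid regulators are set beside the members without weighing any of them. The shares of all genes to set beside the counts are again 0.773% higher and 0.425% lower. Por, Nqo1 and Ephx1 are in a list here and also among the other routes above, so the counts are not independent. Of 13 targets of the receptors CAR and PXR, 7 were at least 2-fold higher and 0 lower (median log2 ratio 1.05), with Cyp2b10 at 29.8 CPM and 501 CPM. Of 17 NRF2 targets above 10 CPM, 5 were at least 2-fold higher and 1 lower (median 0.66). Nqo1 was at 7.65 CPM and 15.2 CPM, 1.99-fold higher (1.62 to 2.46), and Gclm was 1.17-fold lower (1.12 to 1.22). Of 4 targets of the dioxin receptor AhR above 10 CPM, 1 was at least 2-fold higher and 0 lower (median 0.53), while Cyp1a2 was at 407 CPM and 772 CPM, 1.89-fold higher (1.84 to 1.95), and Cyp1a1 had 18 reads and 29 reads, with an interval that includes equality. Of 5 retinoic acid targets above 10 CPM, 0 passed 2-fold in either direction, with a median of -0.19. Cyp26a1, which breaks down retinoic acid, was at 13.9 CPM and 19.1 CPM, 1.37-fold higher (1.16 to 1.62), and Rarres1 was 1.95-fold lower (1.82 to 2.09). Their relation to Aldh1a1, Aldh1a7 or Akr1c19 was not tested.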

How the data were processed

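The authors deposited 1 table of CPM with 1 column per library, assigned through the code that ends each title. Build mm10 and the tools edgeR, RSEM, Bowtie2 and Trimmomatic 0.38 are listed, without roles, per the submitters' processing notes, with an annotation not given in the sources used here. Libraries were rRNA-depleted and directional, from 200 ng of RNA, per the labels' protocols. Columns summed to 1012463 and 987690, so the deposited CPM include a scaling factor (0.988 and 1.01). All values (100%) were whole multiples of 1 step per column, within a relative tolerance of 1e-06, which gave back reads. With 1 library per group a count model has no residual degrees of freedom and was not run. The smallest sum of reads per row was 2.

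Ratios were log2((AAOT + 1)/(control + 1)), counted at 2-fold above a mean of 10 CPM. Intervals are exact 95% (Clopper-Pearson, conditional on the sum of reads). They treat reads as independent molecules, which PCR copies without molecular identifiers are not. Every member above the floor is named; others are named where their interval left out equality or a named relative calls for it. Of context lists, counted genes, those farthest from no change and Nqo1, Gclm, Cyp2b10, Cyp1a1, Cyp26a1 and Cyp2e1 are named. Members and lists were chosen with earlier results of these data known. Positions and 50-base stretches (either strand) come from GENCODE M21 on GRCm38, the assembly that mm10 names; 10 of 48 members have under 90% unique stretches. The steps were run on simulated data that held counting error only. Such data cannot show how the steps fare with spread between mice or libraries, or with reads assigned to the wrong gene. Alternatives were 4 scalings, 2 added constants, 3 floors and 2 sizes. Software was Biopython 1.88, matplotlib 3.10.9, scipy 1.17.1, pandas 2.3.3 and numpy 2.4.6 under Python 3.11.15.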

Additional observations from a re-analysis of the deposited data

How the results depend on the processing

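Of 186 recomputed log2 ratios of the 31 members above 10 CPM, under 4 scalings and 2 added constants, 182 stayed within their counting interval, and 0 whose interval left out equality changed sign. The sign changed for Aldh7a1, Aldh8a1 and Aldh16a1, whose intervals include equality. The 4 that left their interval did so with plain CPM, at 0.47 for Adh1, 0.995 for Aldh1a1, -0.04 for Aldh2 and 0.70 for Aldh1l1, the last also being the ALDH1L median. The scalings moved the median of all genes by at most 0.0347 (log2). The ratio of summed family CPM was 1.26 with plain CPM, 1.25 without Rn45s and the 20 most abundant genes and 1.25 with the median ratio set to 0.

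Floors and sizes changed counts by construction, since other genes enter. The number of members at least 2-fold higher was 1 with a floor of 50 CPM, 4 without a floor, 5 at 1.5-fold and 0 at 4-fold. By group, it was 0 for AKR1C with a floor of 50 CPM and at 4-fold, 1 and 2 for aldehyde and aldose reductases with a floor of 1 CPM and without one, 2 and 0 for ALDH1A, ALDH1B and ALDH2 at 1.5-fold and 4-fold, and 1 each for ALDH1L and carbonyl reductases at 1.5-fold. Group medians were 0.37 for ALDH3 with a floor of 1 CPM, 0.61 for carbonyl reductases and -0.18 for DHRS with a floor of 50 CPM, and 0.24 for ALDH1A, ALDH1B and ALDH2 and 0.37 for ALDH1L without a floor. Of all genes, 0.605% were at least 2-fold higher and 0.386% lower without a floor, 1.22% were higher with a floor of 50 CPM, 2.07% higher and 1.39% lower at 1.5-fold, and 0.103% higher and 0.0773% lower at 4-fold. No paired analysis was possible because each group has 1 library. Depth limits the 17 members under 10 CPM, for which a difference was detectable in 5. No library could be left out.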
